A study of Mus musculus with 2 samples.

Results

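The TCF and LEF factors Tcf7, Lef1, Tcf7l1 and Tcf7l2 were followed across the epithelial and T-cell subsets of the Apc-deleted small intestine. They were found by their exact gene symbols and are 4 of the 31053 genes in each library. All 4 were measured in both mice. In kept cells they carried 3737 UMIs (Tcf7), 882 UMIs (Lef1), 84 UMIs (Tcf7l1) and 1322 UMIs (Tcf7l2), in 1924, 496, 80 and 751 cells.

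Both samples were proximal small intestine, dissociated as all cells, of VilCreER Apc fl/fl (APC) mice given 2 injections of 2 mg tamoxifen, 24 h apart, and taken on day 4. The Villin-driven, tamoxifen-inducible Cre acts in intestinal epithelium, so the T cells of these mice were not its target. There was 1 group of 2 mice and no control library, and each comparison is therefore between cell types of the same animals. Filtering left 7941 cells with 81060645 UMIs in mouse 1 and 6957 cells with 35474260 UMIs in mouse 2, a median of 4381 and 2803 UMIs per cell.

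TCF and LEF proteins are the DNA-binding partners of beta-catenin at the end of the WNT pathway. With beta-catenin they recruit coactivators, and without it they hold Groucho (TLE) corepressors at the same sites. APC belongs to the complex that destroys beta-catenin, so its loss leaves the pathway on. Tcf7l2 (TCF-4) is known as the factor that maintains the intestinal stem-cell compartment. Tcf7 (TCF-1) and Lef1 are known for T-cell development and for naive and memory T cells, and Tcf7l1 (TCF-3) is mostly known as a repressor in embryonic stem cells.

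On GRCm38, Tcf7 lies at chr11:52252371-52283014 on the minus strand and Lef1 at chr3:131110471-131224356 on the plus strand. Tcf7l1 lies at chr6:72626378-72789254 on the minus strand and Tcf7l2 at chr19:55741820-55933654 on the plus strand. All 4 are protein-coding. The lincRNA gene Gm26551 overlaps Tcf7 on the same strand, and how counts were divided between them is uncertain. RefSeq (GRCm38.p6) lists 9 transcription starts for them, each given here as a window of 250 bases before and 50 bases after the start. Only the form CTTTGA of the family's core motif was searched, on both strands, and it reads as its reverse complement where it lies on the other strand. Other forms of the motif were not searched, so windows without CTTTGA may still hold sites of the family. CTTTGA was found in 1 of the 9 windows, a Lef1 start inside the gene body, against 5257 of the 32851 windows of all genes. That window is shown beside the first Lef1 window and the first Tcf7l2 window. Capitals mark the motif, here in its reverse orientation, and each sequence runs 5′ to 3′ on the strand of its gene.
Lef1, inner start, chr3:131156044-131156343, plus strand: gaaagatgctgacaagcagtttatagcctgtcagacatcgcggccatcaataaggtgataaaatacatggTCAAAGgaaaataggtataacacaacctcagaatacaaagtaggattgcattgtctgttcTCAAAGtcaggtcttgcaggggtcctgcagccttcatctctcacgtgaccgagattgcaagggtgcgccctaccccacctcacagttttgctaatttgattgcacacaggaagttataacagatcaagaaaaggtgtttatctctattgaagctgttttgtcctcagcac
Lef1, first start, chr3:131110047-131110346, plus strand: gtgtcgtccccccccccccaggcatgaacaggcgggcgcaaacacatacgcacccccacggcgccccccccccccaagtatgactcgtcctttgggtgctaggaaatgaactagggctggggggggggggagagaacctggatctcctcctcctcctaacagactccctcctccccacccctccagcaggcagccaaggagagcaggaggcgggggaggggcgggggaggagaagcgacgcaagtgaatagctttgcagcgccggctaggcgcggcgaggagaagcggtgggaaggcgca
Tcf7l2, first start, chr19:55741560-55741859, plus strand: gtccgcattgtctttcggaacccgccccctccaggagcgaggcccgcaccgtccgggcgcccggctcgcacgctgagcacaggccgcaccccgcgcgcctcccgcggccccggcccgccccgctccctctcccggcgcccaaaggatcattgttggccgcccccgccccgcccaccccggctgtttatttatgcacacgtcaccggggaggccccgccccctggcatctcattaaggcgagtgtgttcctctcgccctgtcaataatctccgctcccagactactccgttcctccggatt
The inner Lef1 window holds the motif at 2 positions, bases 71 and 131 of the window. The first Lef1 window and the Tcf7l2 window hold none, and counts from the 3′ end of a transcript do not tell which start was used.

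Apc, the floxed gene, was detected in both libraries. It stood at 76.2 CPM (its UMIs scaled by all UMIs of the same cells) in epithelial cells of mouse 1 and at 66.4 CPM in those of mouse 2. In T cells it stood at 40.5 and 47.7 CPM. The 3′ count need not lose its signal when internal exons are removed, so these values do not test recombination.

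Cells were gated on raw UMIs. T cells needed Cd3e, with Cd8b1 alone (CD8ab gate, 552 and 297 cells in mice 1 and 2), Trdc alone (gamma-delta gate, 1464 and 3078), Cd4 without Foxp3 (CD4 gate, 111 and 70) or Foxp3 (Treg gate, 33 and 23). The epithelial gate held 751 and 209 cells, of which 100 and 32 scored as crypt and 311 and 77 as enterocyte cells. All 12 crypt panel genes were detected in the crypt gate, where Lgr5, a stem-cell receptor, reached 26.2 and 66.4 CPM against 0 in enterocytes of both mice. Apoa1, an enterocyte apolipoprotein, stood at 4800 and 4815 CPM in enterocytes and at 24.8 and 12.9 CPM in crypt cells. Lgr5 and Apoa1 belong to the panels that scored the cells. Their differences follow from that scoring and do not check it. Ctla4 in the Treg gate (382 and 590 CPM) exceeded its level in the CD4 gate (52.5 and 164 CPM).

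Some values went against the labels. Cd8a reached 462 CPM in the CD4 gate of mouse 2, against 67.8 CPM in mouse 1. The gamma-delta gate also carried Trbc2 of the alpha-beta receptor, at 569 and 759 CPM. The 6 B- and plasma-cell markers made up 137273 and 81649 CPM of the CD4 gate, 118988 and 104954 CPM of the Treg gate, and 71509 and 28643 CPM of the CD8ab gate. Leaving out T-gated cells with UMIs of other lineages removed 37.8% and 11.4% of the CD4 gate, and levels without them are given for Tcf7, Lef1 and Tcf7l2. Epithelial-gated cells had almost no mitochondrial UMIs (median 0.0310% and 0.0519% in crypt cells, against 2.44% and 2.91% in the CD8ab gate). Values without a mitochondrial limit are given for Tcf7l2 in enterocytes and for Lef1 in gamma-delta over CD8ab cells.

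Tcf7 was the most abundant of the 4 in CD4, CD8ab and gamma-delta T cells. In the CD4 gate Tcf7 reached 169 and 187 CPM in mice 1 and 2 (178 ± 13.0, SD, n = 2). In the CD8ab gate it reached 108 and 177 CPM (142 ± 48.7), and in the gamma-delta gate 68.6 and 94.0 CPM (81.3 ± 18.0). The mice of the CD4 and CD8ab gates overlapped, while every gamma-delta value lay below both. Treg cells held 4 and 7 Tcf7 UMIs, or 10.9 and 45.4 CPM. In crypt cells Tcf7 stood at 31.3 and 42.8 CPM and in enterocytes at 23.4 and 18.5 CPM, so crypt cells were higher in both mice. Macrophages held 7.34 and 5.14 CPM, and 11 of their 14 UMIs in mouse 1 lay in 1 cell. Plasma cells, which should lack it, held 1.31 and 0.886 CPM. Innate lymphoid cells, only 18 and 12 cells, held 176 and 432 CPM.

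The T-cell levels depended on which barcodes stayed in the gates. Without cells holding UMIs of other lineages, Tcf7 was 468 and 308 CPM in the CD4 gate, 183 and 205 CPM in the CD8ab gate and 88.5 and 102 CPM in the gamma-delta gate. The order of the 3 gates was the same in both mice, and the CD4 values did not overlap the CD8ab values. Treg cells then held 2 and 4 Tcf7 UMIs, 18.0 and 57.6 CPM. Lef1 in the same cells was 190 and 62.6 CPM in the CD4 gate, 42.9 and 45.1 CPM in the CD8ab gate, 8.07 and 9.96 CPM in the gamma-delta gate and 89.8 and 86.4 CPM in the Treg gate. So without these cells the CD4 and Treg values of Lef1 overlapped, and both CD8ab values lay below them. Tcf7l2 went from 17 UMIs to 0 in the CD8ab gate of mouse 1 and stood at 5.93 CPM in that of mouse 2, at 6.55 and 4.81 CPM in the CD4 gate and at 2.52 and 1.16 CPM in the gamma-delta gate.

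Lef1 was lower than Tcf7 in most T-cell gates and more even across lineages. It stood at 68.7 and 39.7 CPM in the CD4 gate (54.2 ± 20.5, SD, n = 2), at 31.8 and 44.8 CPM in the CD8ab gate and at 35.5 and 38.9 CPM in the Treg gate. The CD8ab values overlapped those of both other gates, while both Treg values lay below both CD4 values. The gamma-delta gate held 6.05 and 9.08 CPM, below each of them. In enterocytes Lef1 reached 16.5 and 13.2 CPM. In crypt cells it rested on 2 UMIs in mouse 1 (1.46 CPM) and on 9 UMIs in mouse 2 (19.3 CPM), 8 of them in 1 cell. The 43 Paneth cells of mouse 1 held 38.9 CPM, and the 4 of mouse 2 held 2 Lef1 UMIs.

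Tcf7l2 showed the opposite distribution, with high levels in epithelial and myeloid cells. Enterocytes held 82.3 and 135 CPM (108 ± 37.0, SD, n = 2), and crypt cells 44.5 and 45.0 CPM. Monocytes (87.5 and 74.5 CPM), dendritic cells (53.7 and 111.8 CPM) and macrophages (44.0 and 51.4 CPM) reached the epithelial range. T-cell gates stayed between 0 and 11.3 CPM. Smaller epithelial gates held 77.8 and 376 CPM (Paneth cells, 43 and 4 cells) and 73.6 and 179 CPM (goblet cells, 19 and 6 cells), and 15 of the 17 Tcf7l2 UMIs of the Paneth cells of mouse 2 lay in 1 cell. The values of enterocytes, dendritic cells and monocytes overlapped between mice, and those of crypt cells overlapped with macrophages.

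Tcf7l1 had the fewest UMIs of the 4. The gamma-delta gate held 14 and 26 of its UMIs (1.92 and 2.57 CPM), or 45.2% and 49.1% of all Tcf7l1 UMIs in kept cells. That gate held 18.4% and 44.2% of the kept cells. The remaining Cd3e-positive cells held 9 and 22 UMIs (1.09 and 4.32 CPM), below the gamma-delta gate in mouse 1 and above it in mouse 2. The CD8ab gate held 2 and 1. In the CD4 and Treg gates, crypt cells and enterocytes no UMI was seen. In mouse 1 a count of 0 allows up to 2.19 CPM in crypt cells and 1.21 CPM in enterocytes (3 counts, counting error only). A single tuft-type cell of mouse 2 carried the 1 epithelial UMI.

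**Figure D1:**
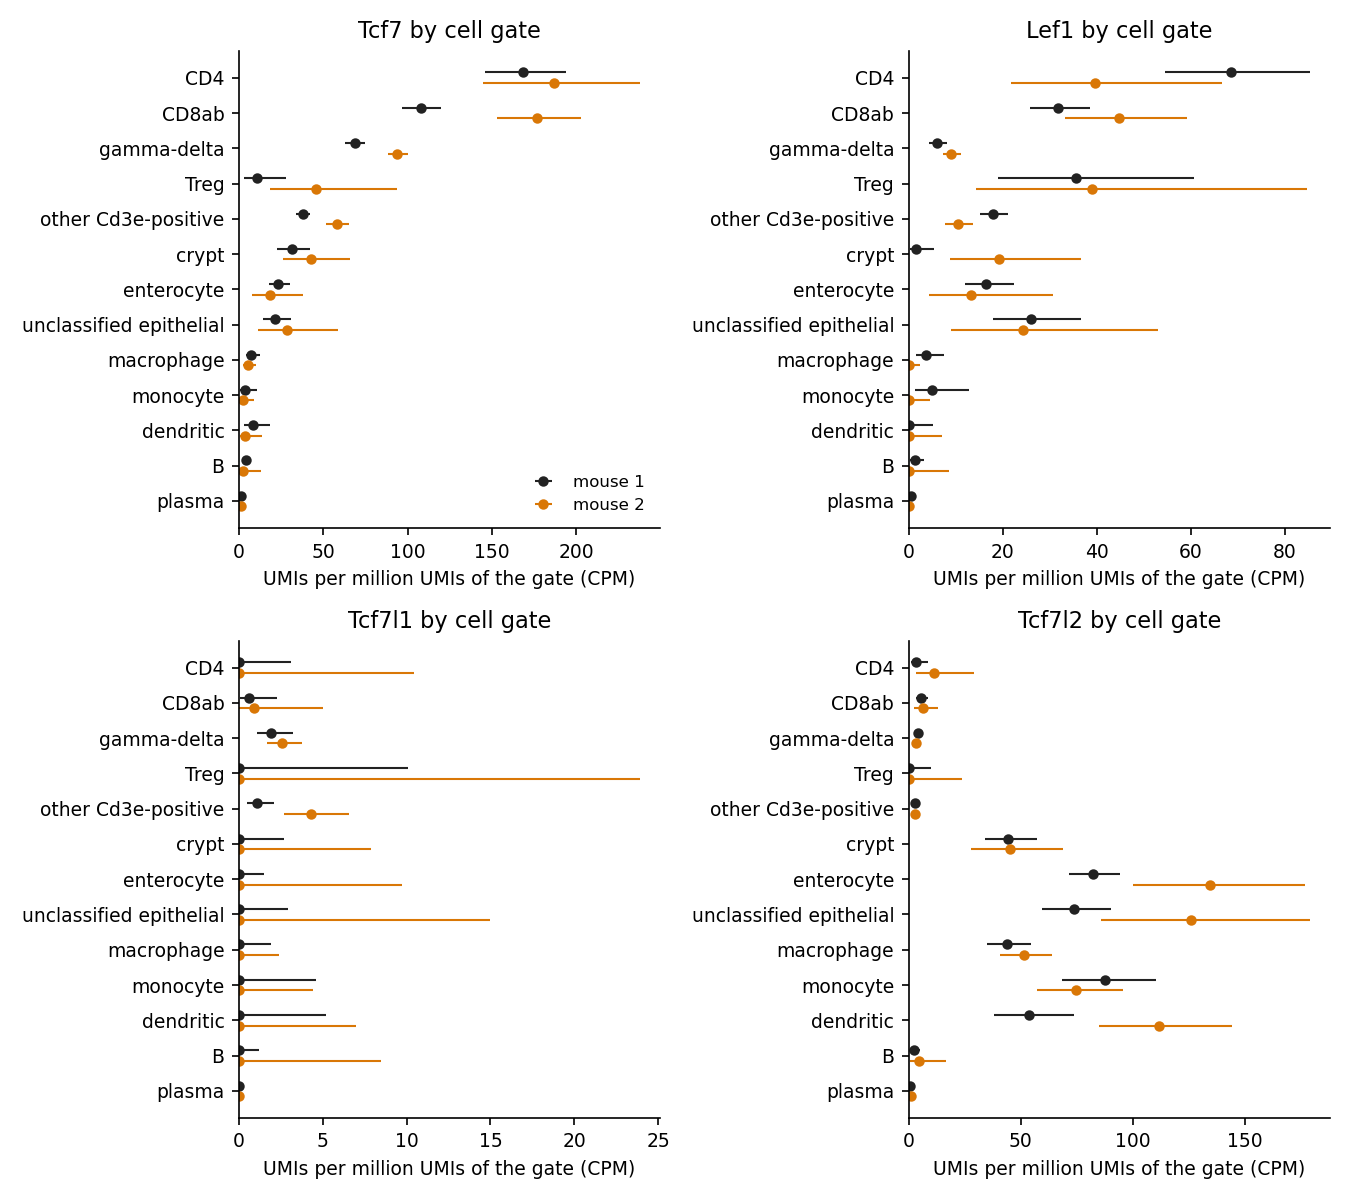
Level of each factor (CPM) in 13 gates with at least 20 cells in each mouse. Points are mice (black, mouse 1; orange, mouse 2) and bars are 95% Poisson counting intervals. Tcf7 was highest in CD4 and CD8ab cells, and Tcf7l2 in enterocytes and myeloid cells.

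The mix of factors differed between gates. A UMI stands for 1 captured 3′ end and is not scaled by gene length, but capture may differ between genes. Tcf7 gave 85.2% and 86.5% of the family's UMIs in gamma-delta cells and 74.1% and 77.3% in CD8ab cells. In crypt cells 40.6% and 40.0% were Tcf7 and 57.5% and 42.0% were Tcf7l2. In enterocytes Tcf7l2 gave 67.3% and 81.0%. In monocytes and dendritic cells Tcf7l2 gave 86.4% to 96.9%. The Treg gate rested on 17 and 13 UMIs of the family in all.

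**Figure D2:**
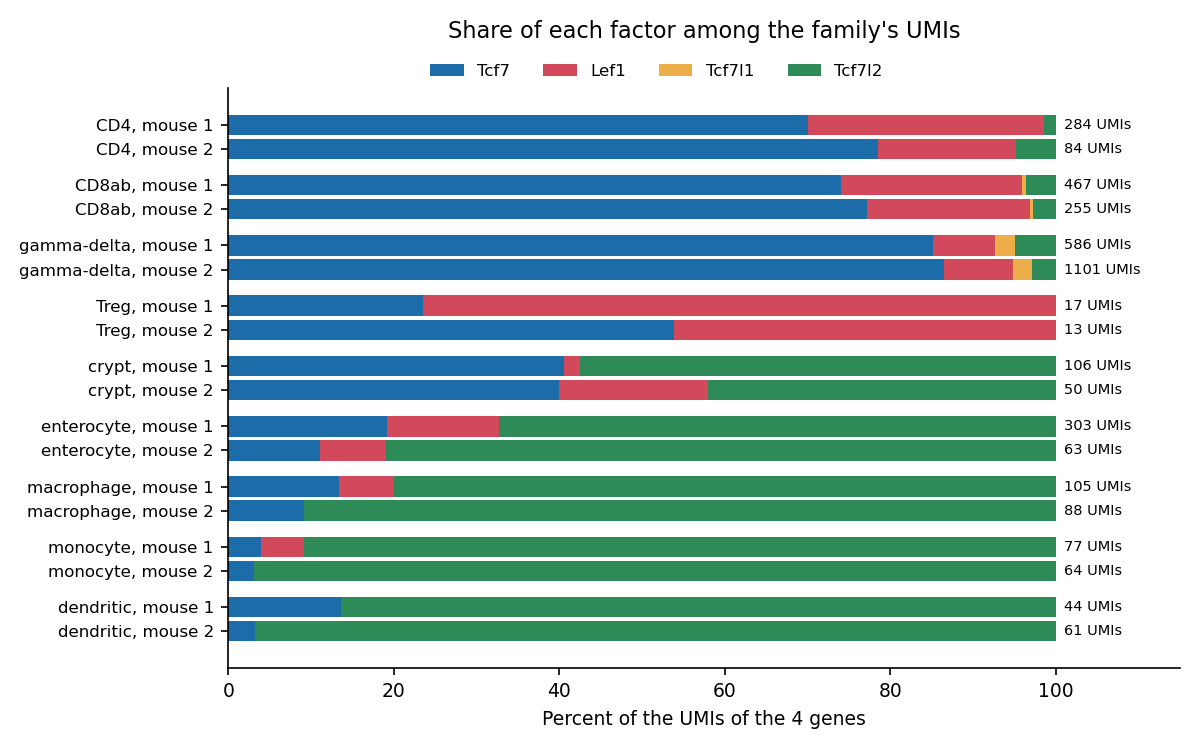
Share of each factor among the UMIs of the 4 genes, by gate and mouse, with the number of UMIs at the right. Tcf7 leads in the CD4, CD8ab and gamma-delta gates and Tcf7l2 in enterocytes and myeloid gates.

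Epithelial cells as a whole were compared with the 4 T-cell gates to ask which factor each lineage carries. Tcf7l2 stood at 70.0 and 108 CPM in epithelium and at 4.15 and 3.57 CPM in T cells, and was higher by 4.42 ± 0.33 on the log2 scale (SE; adjusted p = 0.00125, edgeR). Tcf7 stood at 23.5 and 30.4 CPM in epithelium and at 87.1 and 104 CPM in T cells, a log2 fold change of -1.89 ± 0.21 (adjusted p = 0.00252). Neither gene overlapped between the lineages. Lef1 did not pass the test (log2 fold change -0.09 ± 0.39, adjusted p = 0.851), with -0.50 in mouse 1 and 0.48 in mouse 2. Tcf7l1 gave -3.40 ± 1.27 (adjusted p = 0.0697), and its adjusted p was 0.0490 without T cells carrying other lineages' UMIs. Thus 2 of the 4 members passed, where 56.9% of the 12595 genes tested were called.

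Among all genes of this comparison 26.3% were called higher in epithelium and 30.6% lower, and the counts of coactivators and corepressors called lie near those shares and set neither list apart. Of the 9 beta-catenin and coactivator genes tested, 3 were higher in epithelium and 2 lower. Ctnnb1 (beta-catenin) was higher by 1.69 ± 0.26 and Bcl9, its adaptor, by 3.32 ± 0.26 on the log2 scale, while the acetyltransferases Ep300 (-1.61 ± 0.22) and Crebbp (-1.29 ± 0.22) were lower. Among 15 corepressors and inhibitors, 4 were higher and 5 lower. The corepressors Tle1 (4.86 ± 0.42) and Ctbp2 (3.82) were higher in epithelium with Ctnnbip1 and Hdac2, and Hic1 (-6.09), Tle2 (-3.86), Tle3 (-2.10), Nlk and Tle4 were lower. Of 15 WNT target genes, 13 were higher and none lower, with a list median of 4.83 against -0.19 for all genes. Axin2, a feedback inhibitor, was among them (log2 fold change 3.77), and Sp5 was higher by 6.48 ± 0.38. With no control library, an effect of Apc deletion on these targets and a difference between the lineages cannot be told apart here. Of the T-cell lists, 10 of 15 naive and memory genes and 18 of 18 effector and residency genes were lower in epithelium, and Id3 of the former was higher (3.71). The gates were set on T-cell and leukocyte genes, so lower T-cell genes in epithelium follow from the gating and do not check it.

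Crypt and enterocyte cells were compared to ask which factor goes with the proliferative compartment. Tcf7l2, at 44.5 and 45.0 CPM in crypt cells and 82.3 and 135 CPM in enterocytes, was lower in crypt cells by a log2 fold change of -1.35 ± 0.33 (adjusted p = 0.00857), with no overlap between the groups. It fell in both mice (-1.04 and -1.66). Tcf7 gave 0.56 ± 0.39 (adjusted p = 0.261), positive in both mice. Lef1 gave -1.35 ± 0.83 (adjusted p = 0.205), with -3.36 in mouse 1 and 0.38 in mouse 2. Tcf7l1 had too few counts. Hence 1 of 3 members tested passed, where 48.9% of 7208 genes were called. The B- and plasma-cell markers stood at 4439 CPM in crypt cells and 6093 CPM in enterocytes of mouse 1, against 625 and 1251 CPM in mouse 2. The 6 myeloid markers stood at 388 CPM in crypt cells and 3198 CPM in enterocytes of mouse 1, and at 62.1 and 586 CPM in mouse 2, so they were higher in enterocytes as Tcf7l2 was. In cells with no UMI of the leukocyte panel Tcf7l2 gave -1.24 ± 0.36 (adjusted p = 0.0160). The part of the myeloid, B- and plasma-cell markers was not tested. With no mitochondrial limit Tcf7l2 gave -1.87 ± 0.42 (adjusted p = 0.00539). Its level in enterocytes was then 82.7 and 198 CPM, and the 27 enterocytes of mouse 2 with 5% or more mitochondrial UMIs held 42 Tcf7l2 UMIs, 474 CPM.

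Genes downstream of the factors were counted in the same comparison. Of 12 targets tested, 7 were higher in crypt cells and none lower, where 25.2% of all genes were called higher and 23.8% lower, and the list median was 1.68 against 0.06 for all genes. The crypt panel that scored the cells holds the WNT targets Lgr5 and Ascl2 and cycling genes such as Mki67. Panel genes were left out of the test, but genes that go with them were not. The count of targets is therefore not independent of how the gate was chosen. DESeq2 called 4 of the targets higher, and the fit with the mouse as replicate block called 6, without Ephb2 (block adjusted p = 0.0549). Cd44 rose by 2.84 ± 0.59, Nkd1 by 2.60 ± 0.48, Myc by 2.43 ± 0.39 and the cyclin gene Ccnd1 by 2.28 ± 0.27. Prox1 stood at 17.7 and 73.5 CPM in crypt cells and at 0 in enterocytes of both mice. Axin2 did not pass (0.57 ± 0.29, adjusted p = 0.138), nor did Sox9 (-0.27 ± 0.34, adjusted p = 0.542). Ctnnb1 gave a log2 fold change near 0 (0.08 ± 0.32, adjusted p = 0.862). Among coactivators, Pygo2 (1.69 ± 0.51) and the chromatin remodeller Smarca4 (1.22 ± 0.28) were higher in crypt cells, 2 of 9 tested. Of 12 corepressors and inhibitors, Hdac2 (0.97 ± 0.33) and Zbtb33 (1.27 ± 0.46) were higher, and Aes (-1.52 ± 0.28) and Tle4 (-1.26 ± 0.32) lower. These counts stand beside 48.9% of all genes called and set neither list apart, and DESeq2 called 1 coactivator higher and 1 corepressor or inhibitor lower. Of 5 naive and memory genes tested, 3 were higher and 1 lower: Actn1 (2.67), a cytoskeletal gene, Igfbp4 (2.41) and Foxp1 (1.33), against Id3 (-1.73). Of 3 effector and residency genes 0 passed by edgeR (1 at an unadjusted p under 0.05, 0 by DESeq2).

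**Figure D3:**
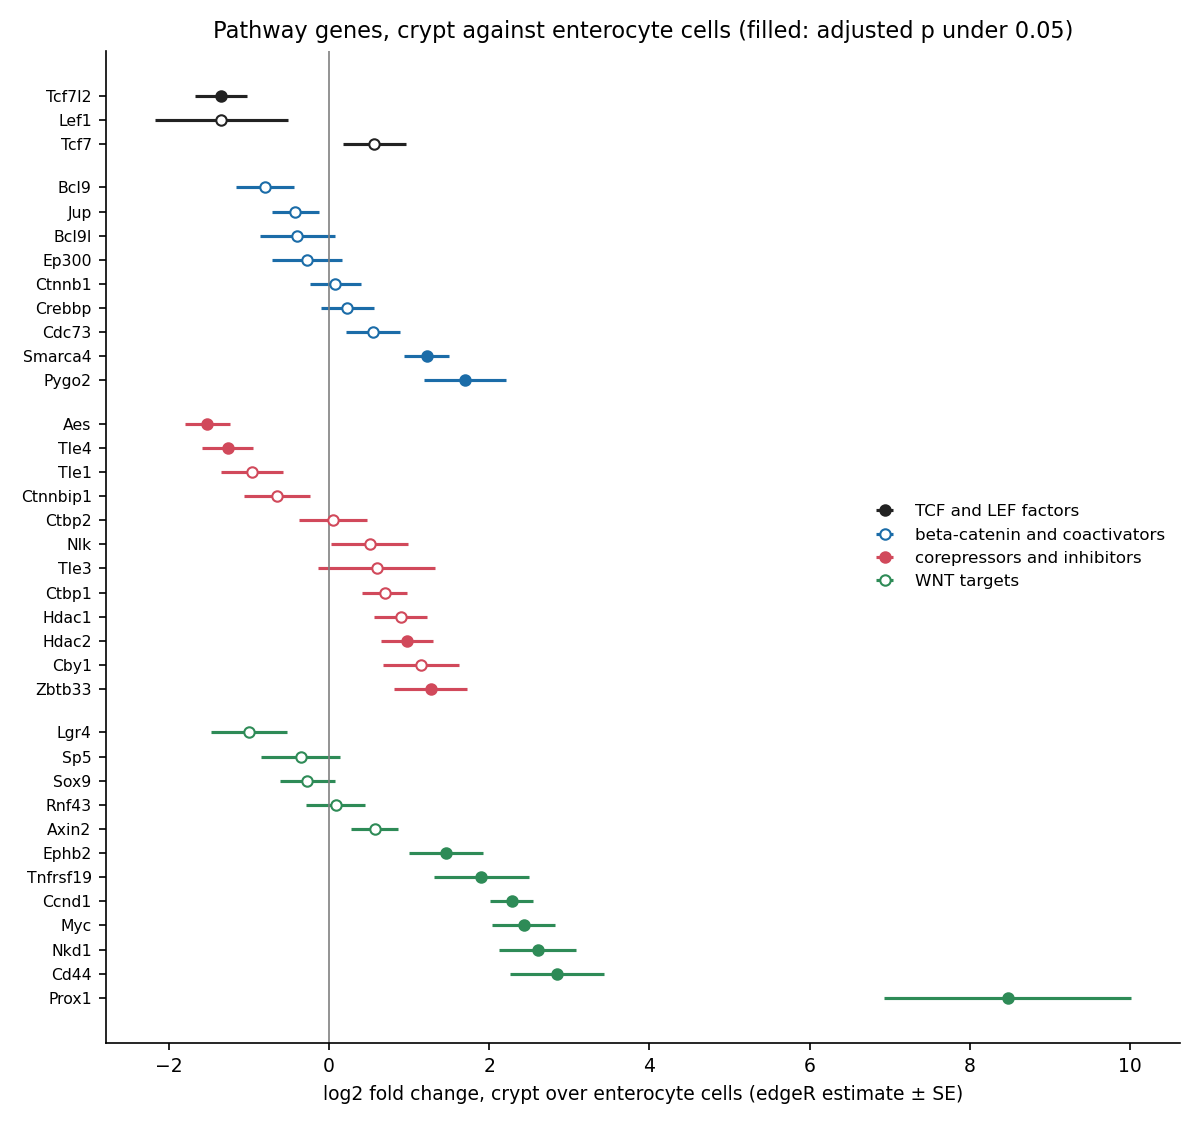
Log2 fold change, crypt over enterocyte cells (edgeR estimate ± SE), for the factors (black), beta-catenin and coactivators (blue), corepressors and inhibitors (red) and WNT targets (green). Filled points have an adjusted p under 0.05. Tcf7l2 lies at -1.35, and the 7 called targets at 1.46 or more; Prox1 had no UMI in enterocytes, so its point is not a bound.

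Among T-cell subsets, CD4 cells were compared with CD8ab cells. Tcf7 gave a log2 fold change of 0.79 ± 0.34 (adjusted p = 0.694; 1.22 and 0.32 by mouse) and Lef1 1.11 ± 0.39 (adjusted p = 0.617; 1.69 and 0.09 by mouse). Neither passed by edgeR or by DESeq2, both had an unadjusted p under 0.05, and 0.0227% of 8818 genes were called. None of the 56 genes of the 5 lists tested was called by edgeR, against 13 at an unadjusted p under 0.05. DESeq2 called 2, both higher members of the naive and memory list. With the mouse as replicate block, 4 naive and memory genes were higher and 6 effector and residency genes lower in CD4 cells, with 1 WNT target, Cd44 (block adjusted p = 0.0193), higher. The 4 naive and memory genes were Slamf6 (block adjusted p = 0.00571), Igfbp4 (0.00677), the chromatin organiser Satb1 (0.0105) and S1pr1 (0.0322).

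Treg cells were compared with CD4 cells, whose sums also serve in the previous comparison. Tcf7, with 4 and 7 UMIs in Treg cells, gave a log2 fold change of -2.96 ± 0.47, -3.95 in mouse 1 and -1.77 in mouse 2. The adjusted p of 0.144 did not pass. With the mouse as replicate block it was 0.00402 (log2 fold change -3.04), and by DESeq2 2.44e-05. Lef1 gave -0.70 ± 0.48 (adjusted p = 0.780), with -1.07 and 0.22 in the 2 mice, and 33.3% and 17.4% of Treg cells had a Lef1 UMI. Of the members 0 of 2 were called by edgeR (1 at an unadjusted p under 0.05, 1 by DESeq2), where 0.0227% of all genes were. None of the 56 list genes was called by edgeR, 11 had an unadjusted p under 0.05 and DESeq2 called 2, both lower effector and residency genes. With the replicate block 1 list gene was higher in Treg cells, Ikzf2 (block adjusted p = 0.0124), and 4 were lower, Ccl5 (0.00463), Nkg7 (0.0134), Bcl2 (0.0151) and Igfbp4 (0.0161).

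Gamma-delta cells were compared with CD8ab cells, whose sums were used above too. Lef1, at 6.05 and 9.08 CPM against 31.8 and 44.8 CPM, gave a log2 fold change of -2.47 ± 0.39 (-2.53 and -2.46 by mouse). Its adjusted p was 0.0647 by edgeR, and 0.000772 with the mouse as replicate block and 4.35e-05 by DESeq2. Tcf7 gave a log2 fold change of -0.94 ± 0.33 (adjusted p = 0.571, and 0.0227 with the replicate block). The groups did not overlap for either gene. By edgeR 0 of 2 members were called (2 at an unadjusted p under 0.05, 1 by DESeq2), where 0.215% of genes were. None of the 56 list genes was called by edgeR, 12 had an unadjusted p under 0.05 and DESeq2 called 5, all lower, 4 of them naive and memory genes and 1 an effector and residency gene. The 15 naive and memory genes tested had a median log2 fold change of -1.18, against -0.0042 for all genes. With the replicate block 8 of them were lower and 2 higher in gamma-delta cells. Among the lower ones were Il7r, the interleukin-7 receptor (log2 fold change -2.34 ± 0.36 without the block, block adjusted p = 0.000680), S1pr1, which guides exit from tissue (-2.82 ± 0.54, block adjusted p = 0.00279), and Dapl1 (-6.02 ± 1.03, block adjusted p = 0.00290), and the higher ones were Bcl2, a survival gene, and Ikzf2. Of the other lists, the block called the WNT targets Ccnd1 (block adjusted p = 0.0204) and Cd44 (0.0274) and the effector and residency gene Rora (0.000506) lower, and Klrd1 (0.0273) higher.

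**Figure D4:**
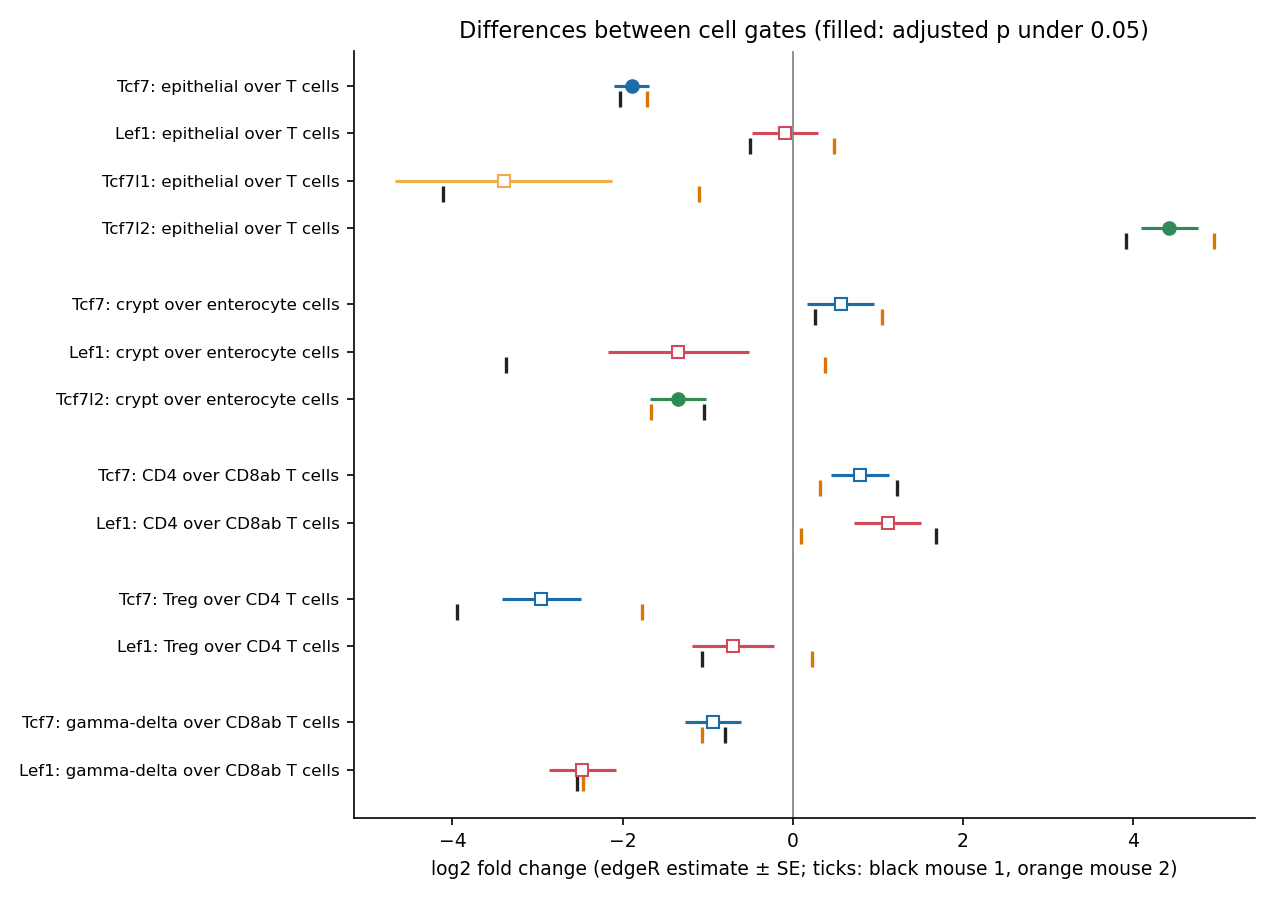
Log2 fold change of each tested factor by comparison (edgeR estimate ± SE), with ticks for mouse 1 (black) and mouse 2 (orange). Filled points have an adjusted p under 0.05, which 3 of the 13 tests reached. Lef1 changes sign between mice in 3 comparisons.

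Single cells showed how the factors combine. In the CD8ab gate 28 of the 34 Lef1-positive cells of mouse 1 and 23 of 30 in mouse 2 also held Tcf7, 82.4% and 76.7%. In gamma-delta cells it was 41.5% and 43.2%, and in Treg cells 3 of 11 and 1 of 4. CD4 cells stood at 80.5% and 60.0%. Among all cells of a gate, Tcf7 was held by 36.96% and 31.99% in CD8ab and 16.05% and 15.95% in gamma-delta cells. It was held by 56.76% and 38.57% of CD4 cells and 12.12% and 13.04% of Treg cells. Each of these shares lay below that of the Lef1-positive cells of the same gate and mouse. The lower value in gamma-delta than in CD8ab cells thus goes with lower Tcf7 detection there. Whether the factors combine less in gamma-delta cells was not tested. Of crypt cells, 29 and 15 held Tcf7 and 33 and 13 held Tcf7l2, and 11 and 9 held both. Cells with no UMI may still express the gene, so these are counts of detection.

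The share of cells with a UMI moves with depth. To compare it, the share expected after thinning each cell to 1000 UMIs was computed. Tcf7 was then expected in 25.6% and 19.2% of CD4 cells, 13.1% and 14.8% of CD8ab cells and 6.43% and 7.47% of gamma-delta cells. Crypt cells gave 2.49% and 4.74%, against 29 of 100 and 15 of 32 cells unthinned with medians of 11179 and 15280 UMIs. A single random draw of 1000 UMIs per cell gave Tcf7 in 4.08% and 0% of crypt cells. Plasma cells, the background, gave 0.122% and 0.145% thinned and 2.39% and 1.84% unthinned with medians of 22049 and 20295 UMIs. Tcf7l2 was expected in 8.56% and 15.7% of thinned enterocytes and 5.55% and 4.81% of thinned crypt cells. Thinning kept 300 of 311 and 65 of 77 enterocytes, 98 of 100 and 30 of 32 crypt cells, 551 of 552 and 293 of 297 CD8ab cells, 1458 of 1464 and 3055 of 3078 gamma-delta cells, and every CD4 cell.

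Free RNA was measured against the ratio of each factor to 8 T-lineage genes over the 4 T-cell gates of the same mouse. At that ratio the epithelial cells would hold 3.41 and 0.493 Tcf7 UMIs, and 134 and 43 were seen. For Lef1 the values were 0.780 and 0.0653, and 89 and 26 were seen. Crypt cells with no UMI of the leukocyte panel or T-lineage genes (59 and 24 cells) held 35.1 and 41.8 CPM of Tcf7. The epithelial gate admitted only barcodes with few leukocyte-panel UMIs, which also lowers their T-lineage UMIs and the counts at that ratio. Innate lymphoid cells, which hold Tcf7, were not part of the ratio. The part of free RNA in the Tcf7 and Lef1 counts was not tested. In the other direction, the 4 T-cell gates held 50 and 42 Tcf7l2 UMIs, where the epithelial ratio gives 22.1 and 9.83. That ratio counts epithelial RNA only. Myeloid cells also hold Tcf7l2, and the 6 myeloid markers stood at 2206 and 1361 CPM in the 4 T-cell gates. The part of free myeloid RNA was not tested, so these counts do not show Tcf7l2 of the T cells themselves.

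The genes most like each factor were found over 26 sums (13 gates in 2 mice, which share libraries and, within a lineage, depth) among 13449 genes. For Tcf7 they were Atp8a2 (Pearson r = 0.91), Bcl11b, a T-cell transcription factor (0.90), Rundc3b (0.89), Utrn (0.88) and Themis, a T-cell signalling gene (0.86). Lef1 was nearest to Bcl11b (0.83), Hlf (0.82), Tnik, a kinase that binds TCF-4 (0.81), Tcf7 (0.79) and Ccdc92 (0.78). Tcf7l2 was closest to Eps8 (0.95), Bri3 (0.95), Tifa (0.95), Ltbr (0.94) and Stx3 (0.94), and had an r of -0.26 with Tcf7. For Tcf7l1, with 84 UMIs, the first was Gm4208 (0.99), followed by Myo16, Srsf12, Islr and Klra7 (0.96 to 0.97). These are descriptions of level across gates.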

How the data were processed

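Single-cell libraries (10x 3′ v3) of 2 APC mice were analysed. Each deposited matrix holds whole-number UMI counts, unnormalised; per the labels, the authors aligned and counted the reads against mm10 using Cell Ranger 6.1.2. The annotation release is not given in the sources used here. Barcodes with over 100 genes, over 400 UMIs, under 5% mitochondrial and under 10% haemoglobin UMIs were kept, as in the study's methods. Cells were gated on raw UMIs, the sums per gate and mouse were tested with edgeR 4.0.16 (R 4.3.3; TMM, glmQLFit, two-sided, Benjamini-Hochberg over all genes tested, threshold 0.05), and levels are CPM computed here from the gate's UMIs (CPM of list genes leave the gate genes out of the total) with 95% Poisson intervals, which cover counting error only. Gates needed 20 cells in each mouse. Doublets were kept. Both libraries share 16 barcode sequences among kept cells.

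The 4 members, the gene lists and the rule for naming genes (members, Apc, gate markers, up to 4 called genes of a list in each direction, 5 most similar genes) were chosen with earlier results of these data known. Same-numbered sums come from 1 animal and are paired, with residual correlations of 0.17 to 0.70. The fit without a replicate block was the main one. Fits were tested on simulated data, drawn without the pairing by mouse. By comparison, they recovered 4.3% to 17% of log2 changes of 1 and 45.3% to 93.3% of log2 changes of 2. Of the calls, 1.2% (epithelial over T cells) to 7.3% (crypt over enterocyte cells) were false. A gene that did not pass may therefore still differ. Each simulation changed only a small set of genes, none of them among the lowest in level. These rates need not hold for genes with few UMIs, or where 56.9% (epithelial over T cells) or 48.9% (crypt over enterocyte cells) of genes were called. P-values of the main fit rest on the spread of 2 mice within the gates, with dispersion moderated across genes, and do not use the pairing. Gene positions are from GENCODE M21. One gene of the naive and memory list and a planned split of T cells that used it are not reported here. DESeq2 1.42.0 and scanpy 1.11.5 served in alternatives.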

Additional observations from a re-analysis of the deposited data

Results flagged for a closer look

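Lef1 moved in opposite directions in the 2 mice in 3 comparisons, and the difference between mice was not tested. Its single-mouse log2 ratios were -0.497 in mouse 1 and 0.479 in mouse 2 for epithelial over T cells, -3.36 and 0.384 for crypt over enterocyte cells, and -1.07 and 0.223 for Treg over CD4 cells. In crypt cells these rest on 2 and 9 Lef1 UMIs, and in Treg cells on 13 and 6.

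The barcodes removed by the filters held 325 Tcf7, 88 Lef1, 6 Tcf7l1 and 246 Tcf7l2 UMIs. Kept cells that entered no gate held 490 Tcf7, 125 Lef1, 7 Tcf7l1 and 147 Tcf7l2 UMIs. These signals lie outside the comparisons and exceed the 3 counts that a count of 0 allows.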

How the results depend on the processing

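The alternative values covered members and counts of genes called. Of them 142 were kept, 15 newly passed, 22 moved and 4 reversed, and none lost its call. Kept means the same direction and side of the threshold for a tested member, or within 1.5 times for a count. Single-mouse values have no test. They counted as kept with the main value's sign and a distance from it within the SD of the 2 mice. A main value midway between the mice always meets that distance, so these entries say little. The cause of the shifts was not tested. Lef1 in crypt cells rested on 2 and 9 UMIs, and the Treg gate on 33 and 23 cells.

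The mouse is the pairing of the sums. With the replicate block the genes called rose from 2 to 198 for CD4 over CD8ab cells, 2 to 86 for Treg over CD4 cells and 19 to 345 for gamma-delta over CD8ab cells. The block brought Tcf7 (log2 fold change -3.04) past the threshold in Treg over CD4 cells and Tcf7 (-0.92) and Lef1 (-2.42) in gamma-delta over CD8ab cells, and changed no other call of a member. In the same order of comparisons, DESeq2 called 40, 60 and 122 genes, the fits without a filter on low counts 315, 227 and 402, those without the highest doublet scores 1, 6 and 41, and those without T cells holding other lineages' UMIs 23, 17 and 146. Fits with only the compared gates called 1, 9 and 2 genes. Requiring 2 Cd3e UMIs left 0 called genes in CD4 over CD8ab cells. DESeq2 called 2268 genes in crypt over enterocyte cells (edgeR 3527), where a fit of only the compared classes was the same fit.

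Tcf7 in Treg over CD4 cells passed by DESeq2 (-2.96), without the filter (-3.00), without doublets (-3.30) and without cells of mixed lineage (-3.65). Lef1 in gamma-delta over CD8ab cells passed by DESeq2 (-2.49), without the filter (-2.40), with a mitochondrial limit of 10% (-2.52), without cells of mixed lineage (-2.35) and, chosen after seeing the data, with no mitochondrial limit (-2.51). Lef1 in crypt over enterocyte cells passed with Leiden clusters (-1.96). The names of those clusters are uncertain, as they put 164 and 72 cells in tuft clusters, against 5 and 5 in the tuft gate. Tcf7l1 in epithelial over T cells passed without T cells of mixed lineage (-3.36) and for epithelial cells with no leukocyte UMI (-6.69). Lef1 in epithelial over T cells turned to 0.00434 by DESeq2.

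Leaving out 1 mouse gives values with no test. Lef1 ranged from -0.50 to 0.48 in epithelial over T cells, -3.36 to 0.38 in crypt over enterocyte cells, -1.07 to 0.22 in Treg over CD4 cells and -2.53 to -2.46 in gamma-delta over CD8ab cells, and Tcf7l1 from -4.12 to -1.10 in epithelial over T cells. Of 220 list counts under alternatives, 186 stayed within 1.5 times and 34 moved.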
